A study of Mus musculus with 8 samples.

Results

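The proteasome subunit genes were taken as all rows of the deposited table whose symbol begins with Psm, a letter from a to g and a number, without the 5 rows marked as pseudogenes. This gave 50 of the 55487 genes in the table. One of them, Psmc3ip, encodes a partner of meiotic recombinases that is named for binding a proteasome subunit and is not part of the proteasome, so it is given apart from the other 49. The 49 comprise 7 alpha-ring and 7 beta-ring genes of the core particle, 5 core genes that replace these in particular tissues, 9 genes of the base and 8 of the lid of the regulatory particle, 6 genes of activators and an inhibitor, and 7 assembly chaperone genes. Of the 49, 45 passed the filter on low counts and were tested; Psma8, Psmb8, Psmb9 and Psmb11 did not.

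The samples were mouse embryos at the 2-cell stage, injected as zygotes 20 h after human chorionic gonadotropin and collected 10 h later, with 5 embryos pooled per sample. The 4 control samples are labelled as wild type and received CasRx, a nuclease that cuts RNA under the direction of a guide RNA. The 4 samples labelled as Polq knockdown received CasRx together with a guide RNA against Polq, which encodes DNA polymerase theta. The comparison asks how knockdown of Polq affects the transcriptome of the embryo. Both groups carried CasRx, uninjected embryos were not analysed here, and the labels name neither a strain nor a non-targeting guide.

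Library totals ran from 33311665 to 43748621 counts in the controls, and knockdown-labelled replicates 1, 2, 3 and 4 held 4726159, 8627403, 8100969 and 33650050 counts. Polq itself was at 32.7 to 49.7 CPM (counts of a gene relative to the scaled total of its library) in the controls and at 16.9 to 41.1 CPM across the knockdown-labelled libraries, and the groups overlapped, so libraries are named by their label. Of 8 oocyte markers all had counts, Zp1 in all libraries but knockdown-labelled replicate 1. They summed to 3359 to 5849 CPM across the controls and 3708 to 5805 CPM across the knockdown-labelled libraries. Most of this was Oosp1, at 3036 to 5371 and 3443 to 5338 CPM. Of 8 markers of the 2-cell stage 7 were found and had counts (Duxf3 in control replicate 2 alone). These summed to 397.5 to 956.5 CPM across the controls and 495.2 to 950.1 CPM across the knockdown-labelled libraries. Of 8 markers of cumulus cells 5 were at 0 in all libraries, Has2, Ptx3 and Fshr among them, and the list summed to 0 to 21.5 CPM across the controls and 0.793 to 10.7 CPM across the knockdown-labelled libraries. Of 5 sperm markers 4 were at 0, and Prm2 reached at most 7.06 CPM across the controls and 7.34 CPM across the knockdown-labelled libraries.

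The proteasome degrades proteins that carry ubiquitin chains. Its core particle is a barrel of outer alpha rings, which gate the entrance, and inner beta rings, which hold the proteolytic sites; the regulatory particle binds at the ends, with a lid that removes ubiquitin and a base whose ATPases unfold the substrate. In the early embryo the proteasome takes part in the removal of maternal proteins.

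Among the 49 genes, median RNA levels of the constitutive core were above those of the other parts in all 8 libraries. No proteasome gene passed the test between the groups. To compare genes with one another, CPM was divided by the length of the annotated exons in kilobases. On this scale 13 of the 14 constitutive core genes were among the 18 highest of the 49, the exception being Psma7, and with the longest annotated transcript as the length 12 of the 14 were. The median level of the 14 core genes was 66.9, 42.8, 43.7 and 66.1 CPM per kilobase in control replicates 1 to 4 and 45.1, 51.7, 71.0 and 60.4 in knockdown-labelled replicates 1 to 4. The median level of the 9 base genes in the same order was 10.1, 7.79, 7.78 and 9.85 CPM per kilobase, then 5.56, 6.71, 18.6 and 10.9. The ratio of the core median to the base median within a library ran from 3.82 in knockdown-labelled replicate 3 to 8.12 in knockdown-labelled replicate 1, with a median of 6.11 over the 8 libraries. The ratio of the core median to the lid median ran from 2.05 to 6.26, and that to the median of the assembly chaperones from 4.90 to 21.0. With the longest annotated transcript as the length, the core median was 4.14 to 10.7 times the base median.

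**Figure D1:**
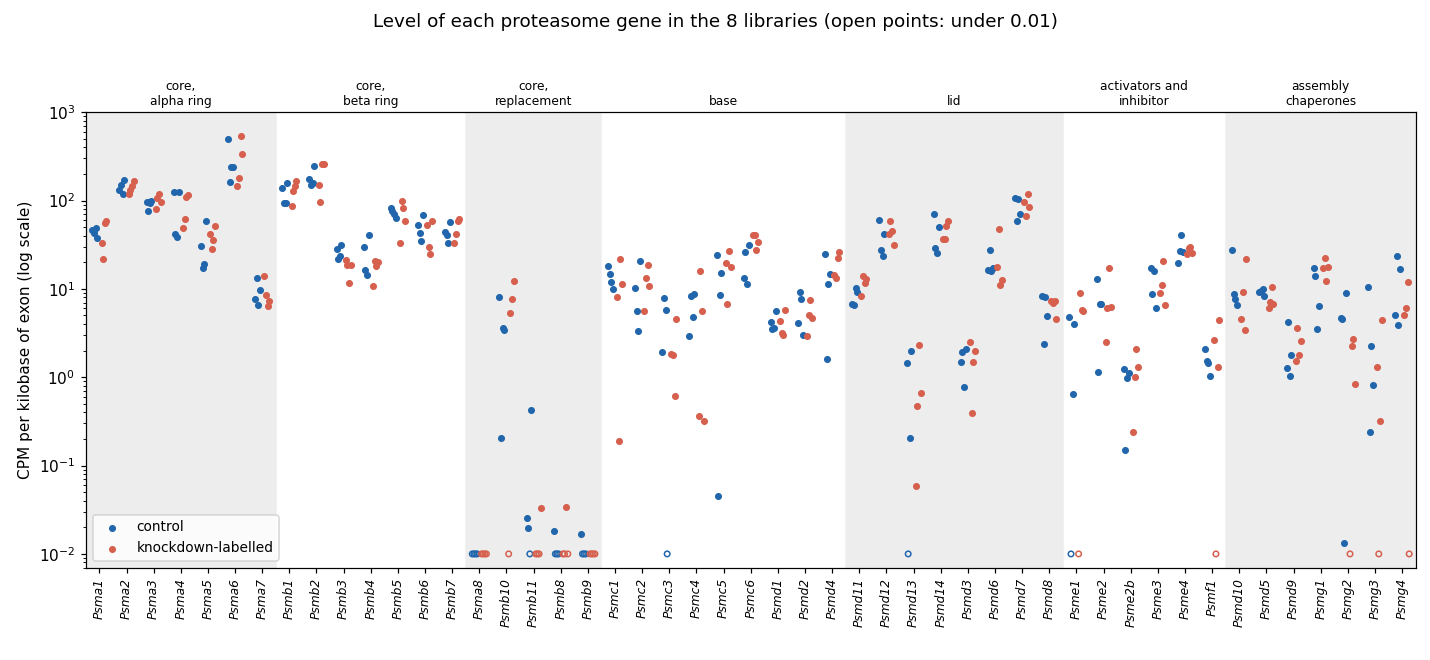
Level of each of the 49 proteasome genes in CPM per kilobase of exon, on a log axis, grouped by role, with 1 point per library (blue, 4 controls; red, 4 knockdown-labelled libraries; open points, under 0.01). Of the 14 constitutive core genes 13 are among the 18 highest by mean level, and Psma7 is lower. Several base, activator and assembly genes have single libraries far below the others.

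None of the 45 tested genes passed edgeR's quasi-likelihood test between the groups, and every adjusted p was 1.0. In these bulk samples fewer cells of a type and less RNA per cell cannot be told apart. The share of all 13146 tested genes called at an adjusted p under 0.05 was 0%. At an unadjusted p under 0.05, 1 of the 45 was higher and 0 were lower in the knockdown-labelled libraries, beside 1.1% of all genes higher, 1.71% lower and 2.81% in either direction. At an adjusted p under 0.05, DESeq2 called 0 of the 45 and 0.154% of all genes, and limma-voom called 0 of the 45 and 0% of all genes. At an unadjusted p under 0.05, DESeq2 had 1 and limma-voom 2 of the 45. The share of all genes at that threshold was not computed for these tools, so nothing is read from these counts. Log2 fold changes, given throughout as knockdown-labelled minus control, were positive in 25 and negative in 20 of the 45, with a median of 0.059, beside a median of −0.047 over all genes tested. The 4 controls and the 4 knockdown-labelled libraries did not overlap in 1 of the 45, Psmb3, where 2.98% of all genes tested did not overlap in either direction. The median standard error was 0.45 on the log2 scale for the 45 genes, beside 0.85 for all genes tested.

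**Figure D2:**
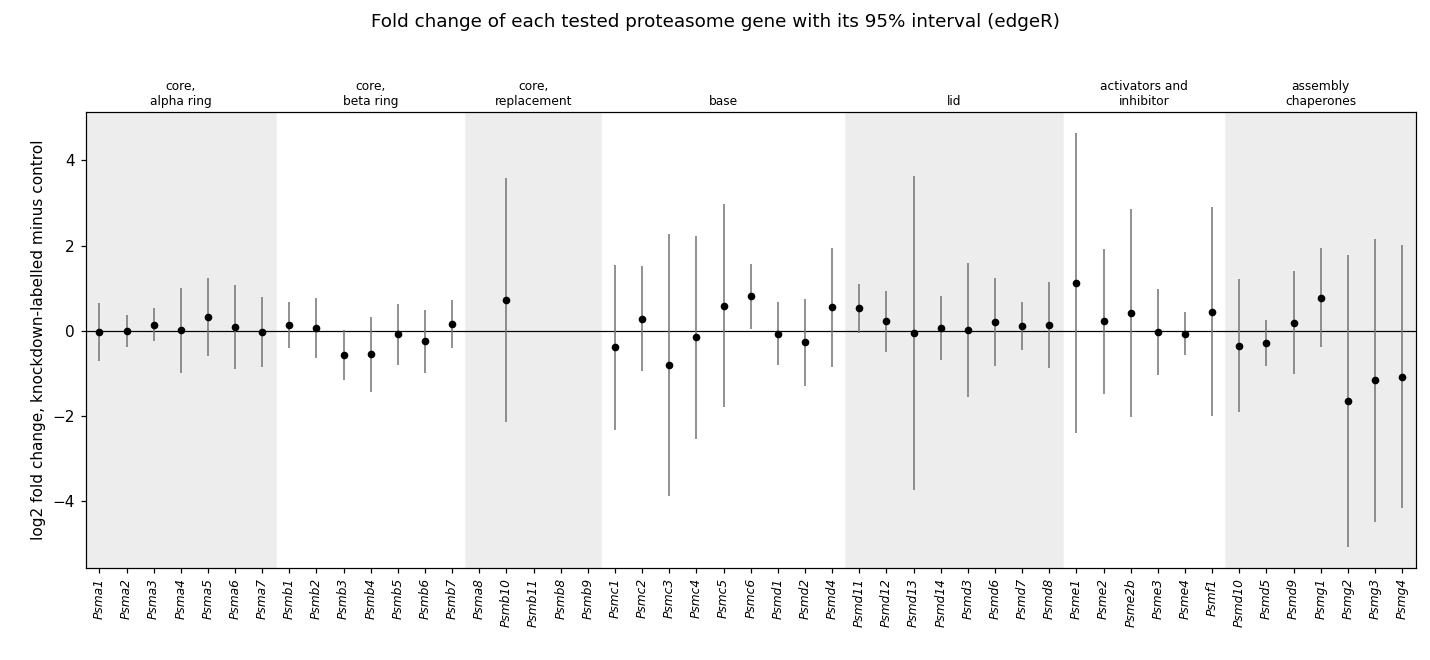
Log2 fold change (knockdown-labelled minus control) of each of the 45 tested proteasome genes by role; points are edgeR estimates from 4 against 4 libraries and bars are 95% intervals. All intervals but that of Psmc6 include 0. The median SE was 0.32 for the 14 constitutive core genes and 0.46 for the base and lid genes. Widths overlapped between roles, with an SE of 0.23 for the activator gene Psme4 and 0.45 for the core gene Psma4.

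The alpha-ring genes were all present in every library and differed widely among themselves. Psma6 had the highest level of all 49 genes, a mean of 292 CPM per kilobase, and Psma7 the lowest level of the constitutive core, 9.19 CPM per kilobase, a 31.8-fold difference between genes whose products occupy 1 position each in the same ring; with the longest transcript as the length it was 18.6-fold. Psma6 was at 606.5, 201.1, 296.6 and 295.2 CPM across control replicates 1 to 4, against 182.2, 224.4, 661.7 and 415.4 CPM across knockdown-labelled replicates 1 to 4. Control replicate 1 and knockdown-labelled replicate 3 thus stood highest, and the groups overlapped. Psma7 was at 23.7, 40.5, 20.1 and 29.95 CPM across the controls, against 43.4, 26.1, 19.9 and 22.2 CPM across the knockdown-labelled libraries, again with overlap. Psma3, which had the smallest p of the ring, was at 371.8, 296.8, 365.4 and 381.7 CPM and at 308.6, 412.6, 464.8 and 377.3 CPM (log2 fold change 0.14, SE 0.17).

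Among the 7 alpha-ring genes 4 log2 fold changes were positive and 3 negative, between −0.041 and 0.31 with a median of 0.0061. The 95% intervals show how precisely each difference was estimated, gene by gene and with no adjustment over the genes tested. For Psma2, at 523 ± 84.3 (SD, n = 4) and 517 ± 71.8 CPM (SD, n = 4), the 95% interval of the knockdown-labelled level was 76.2% to 128% of the control level. For Psma4, at 197 ± 117 and 197 ± 78.3 CPM (SD, n = 4 each), it was 49.97% to 202%. Psma4 fell into a higher and a lower range within both groups, with 299.3 and 296.5 CPM across control replicates 1 and 4 against 99.4 and 91.7 CPM in replicates 2 and 3.

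The beta ring holds the 3 proteolytic subunits of the constitutive core, and these were present in all libraries at levels that overlapped between the groups. Psmb5, the chymotrypsin-like subunit, was at 73.1, 68.4, 63.1 and 57.1 CPM across control replicates 1 to 4, against 29.6, 89.2, 74.3 and 52.8 CPM across knockdown-labelled replicates 1 to 4. Psmb6, the caspase-like subunit, was at 98.1, 80.5, 66.0 and 128.6 CPM and at 100.1, 55.4, 47.0 and 110.3 CPM. Psmb7, the trypsin-like subunit, was at 150.3, 139.7, 114.1 and 194.3 CPM and at 112.2, 144.0, 202.8 and 210.9 CPM. The lowest Psmb5 value was that of knockdown-labelled replicate 1, the library with the fewest counts, while Psmb6 and Psmb7 in that library lay inside or next to the range of the controls. Their log2 fold changes were −0.089 (SE 0.32), −0.25 (SE 0.33) and 0.16 (SE 0.25). Per kilobase the catalytic genes were at means of 70.6, 45.8 and 46.3 CPM.

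Psmb5 and Psmb6 are 2 of 5 genes among the 41 proteasome genes with a RefSeq promoter (GRCm38.p6) that hold the letters TGACNNNGC on either strand in the 250 bases before the start site, the other three being Psmc6, Psmd9 and Psmd12. TGACNNNGC is the core of the antioxidant response element, to which the transcription factor Nfe2l1, a known activator of proteasome genes, can bind. The share of 12.2% is close to the 13.5% of the tested genes with a promoter (1214 of 8975) and the 11.5% of all genes with one. The bases before the start of both catalytic genes are shown because they are the proteolytic genes in which the letters were found, with the match in capitals. The Psmb5 stretch is on the minus strand at chr14:54618023-54618145 and the Psmb6 stretch on the plus strand at chr11:70525207-70525356.
Psmb5: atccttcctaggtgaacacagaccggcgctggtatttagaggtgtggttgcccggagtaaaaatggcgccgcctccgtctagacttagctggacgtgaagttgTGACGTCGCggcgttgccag
Psmb6: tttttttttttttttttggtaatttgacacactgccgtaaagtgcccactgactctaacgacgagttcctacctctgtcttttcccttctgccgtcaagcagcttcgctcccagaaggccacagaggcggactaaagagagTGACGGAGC

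Psmb3, a structural beta subunit, was the one proteasome gene whose groups did not overlap. It was at 64.5, 50.4, 53.8 and 72.5 CPM across the controls, against 48.98, 43.4, 26.8 and 42.9 CPM across the knockdown-labelled libraries. Every knockdown-labelled library lay below every control, by as little as 50.4 against 48.98 CPM. The log2 fold change was −0.57 (SE 0.27; 95% interval of the level 44.5% to 101% of control), and in edgeR's test the unadjusted p was 0.0567 and the adjusted p 1.0. The protein-coding Psmb3 gene spans positions 97703399 to 97713500 of chromosome 11 (GRCm38, plus strand). Psmb2 had the highest mean level of the ring per kilobase of exon, 187 CPM, followed by Psmb1 at 126 CPM, an order that the longest transcript as length reversed (262 and 295 CPM). Psmb2 was at 212.9, 182.7, 192.3 and 295.9 CPM and at 182.0, 116.9, 312.2 and 309.0 CPM. Psmb4 and Psmb3 were the lowest of the ring, at 21.4 and 21.9 CPM per kilobase, also in reversed order by the longest transcript (35.3 and 33.4 CPM). Psmb4 was at 58.7, 31.9, 27.7 and 80.4 CPM across the controls, against 20.8, 40.2, 35.2 and 38.9 CPM across the knockdown-labelled libraries. Its log2 fold change was −0.55 (SE 0.39). The highest 2 control values of Psmb4 lay above all knockdown-labelled values, and the other two within them. Among the 7 beta-ring genes 3 log2 fold changes were positive and 4 negative, around a median of −0.089.

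The genes that replace core subunits in other tissues were near or at 0, except Psmb10. Psmb8 and Psmb9 encode the immunoproteasome counterparts of Psmb5 and Psmb6, and are induced by interferon gamma. Psmb8 had 2 counts in control replicate 1, 1 count in knockdown-labelled replicate 3 and 0 elsewhere; Psmb9 had 2 counts in control replicate 1, 1 in control replicate 4 and 0 elsewhere. Psma8, the alpha subunit of male germ cells, had 0 counts in all 8 libraries, which allows levels of up to 0.0686 to 0.0945 CPM across the controls and 0.0940 to 0.595 CPM across the knockdown-labelled libraries (3 counts per library; counting error only). Psmb11, the beta subunit of the thymic cortex, had 87 counts in control replicate 4 and 0 to 5 in the other 7 libraries.

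Psmb10, the immunoproteasome counterpart of Psmb7, was at 13.9, 0.347, 6.13 and 5.84 CPM across control replicates 1 to 4, against 0, 8.99, 13.1 and 20.9 CPM across knockdown-labelled replicates 1 to 4. It was thus absent or nearly so in 1 library of each group, while the other 6 held 74 to 666 counts. Its log2 fold change was 0.72 with an SE of 1.28, and from 0.17 to 1.39 with each library left out in turn. Per kilobase, Psmb8, Psmb9 and Psmb10 together made up 0% to 6.39% of the sum of the 6 catalytic and replacement genes, with a median of 2.76%. Of 5 markers of immune cells, which use the immunoproteasome, Lyz2 was at 0 in all 8 libraries and Ptprc had 1 count in all, while the list summed to 6.42 to 28.8 CPM across the controls and 4.16 to 31.8 CPM across the knockdown-labelled libraries through Cd52, Cd74 and H2-Aa. Their part in the Psmb10 level was not tested.

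The base of the regulatory particle consists of 6 ATPases, encoded by Psmc1 to Psmc6, and of the scaffold and ubiquitin-binding subunits Psmd1, Psmd2 and Psmd4. Its genes differed more between libraries than those of the core. Over the 8 libraries 6 of the 9 ranged over more than 4-fold, against 0 of the 14 constitutive core genes and 67.6% of all genes tested. Psmc3 was at 5.08, 20.3, 15.1 and 0 CPM across the controls, against 4.76, 4.62, 1.62 and 11.9 CPM across the knockdown-labelled libraries. Control replicate 4, with 40702806 counts in all, held no count of Psmc3, while control replicates 2 and 3 held 645 and 661. Psmc5 had 2 counts in control replicate 2 and 521 to 1090 in the other controls (33.3, 0.063, 11.9 and 20.9 CPM). Psmc1 had 3 counts in knockdown-labelled replicate 2, and 78, 368 and 707 in knockdown-labelled replicates 1, 3 and 4. Psmd4 was at 4.47 CPM in control replicate 2 and at 31.8 to 74.1 CPM in the other 7 libraries.

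These low values did not fall in the same library for all ATPases. Psmc5 was lowest in control replicate 2, Psmc3 in control replicate 4, Psmc1 in knockdown-labelled replicate 2, and Psmc4 in knockdown-labelled replicates 1 and 4 (0.793 and 0.689 CPM against 6.39 to 34.5 CPM elsewhere). Of 360 values of the 45 tested genes in 8 libraries, 24 (6.67%) were below 0.25 times the gene's median over the libraries, against 13.1% over all genes tested. They numbered 0, 8, 3 and 1 in control replicates 1 to 4 and 6, 4, 0 and 2 in knockdown-labelled replicates 1 to 4. All 24 belonged to genes with a mean under 50 CPM: 21 of 128 values (16.4%) at a mean under 20 CPM, where the share over all genes was 19%, and 3 of 72 (4.17%) from 20 to 50 CPM, where it was 1.86%. The 20 genes with a mean of 50 CPM or more had none in 160 values, a range in which the core genes stand except Psma5, Psma7 and Psmb4.

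**Figure D3:**
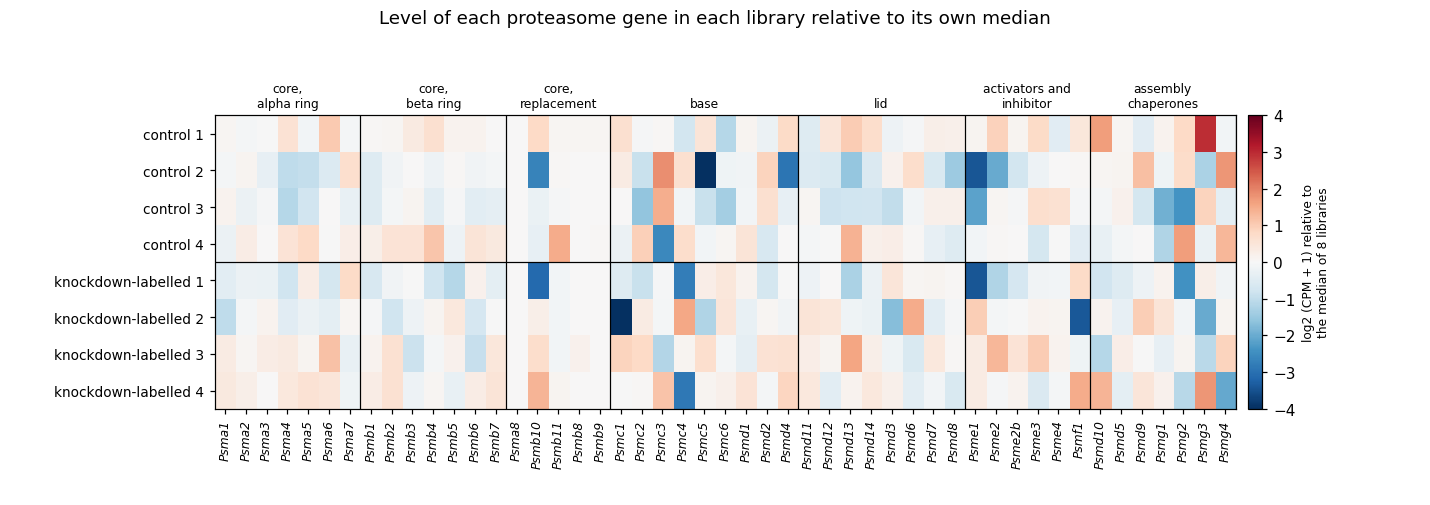
Level of each of the 49 proteasome genes (columns, by role) in each of the 8 libraries (rows), as log2 of (CPM + 1) relative to the gene's median over the libraries, with colours clipped at −4 and 4. Dark blue cells are single libraries with few or no counts of a gene, such as Psmc5 in control replicate 2 and Psmc1 in knockdown-labelled replicate 2. The columns of the constitutive core genes stay pale.

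Psmc6 had the highest mean level of the base, 28.1 CPM per kilobase, and the smallest p of all proteasome genes. It was at 46.3, 91.5, 39.8 and 109.1 CPM across control replicates 1 to 4, against 141.2, 144.1, 96.1 and 118.7 CPM across knockdown-labelled replicates 1 to 4. Of the knockdown-labelled libraries 3 lay above all controls, and replicate 3 lay below control replicate 4. The log2 fold change was 0.80 (SE 0.34; 95% interval of the level 103% to 295% of control), with an unadjusted p of 0.0405 and an adjusted p of 1.0 in edgeR's test. With each library left out in turn the log2 fold change of Psmc6 ran from 0.60 to 1.08. The protein-coding Psmc6 gene spans positions 45329788 to 45349705 of chromosome 14 (GRCm38, plus strand). The sum over the 9 base genes was 293.9, 254.1, 206.5 and 365.3 CPM across the controls and 300.6, 339.2, 397.4 and 367.5 CPM across the knockdown-labelled libraries, and of it Psmc6 alone made up between 39.8 and 144.1 CPM. Among the base genes 4 log2 fold changes were positive and 5 negative, with a median of −0.071.

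The Psmc6 promoter also holds the letters CCGGAAG, the core to which transcription factors of the ETS family bind. On either strand of the 250 bases before the start site, 12 of 41 proteasome genes held them (29.3%), against 15.9% of the tested genes with a promoter (1425 of 8975) and 7.83% of all genes with one. This motif was chosen after its counts were seen, and the difference was not tested. Of the 12, Psmc1, Psmc2, Psmc6, Psmd2 and Psmd4 belong to the base, Psmd6, Psmd11 and Psmd12 to the lid, Psme3 and Psme4 to the activators and Psmg1 to the assembly genes, and Psma6 is the single core gene. The letters CCAAT were found in 34.1% of the 41, against 42% of the tested genes, and the core of the interferon-stimulated response element in 7.32% against 2.91%. The stretch before Psmc6, on the plus strand at chr14:45329674-45329787, is shown because it combines the motif with the member of smallest p, with the match in capitals.
Psmc6: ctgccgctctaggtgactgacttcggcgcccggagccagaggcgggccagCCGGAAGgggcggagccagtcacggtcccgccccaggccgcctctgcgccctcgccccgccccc

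The lid removes ubiquitin chains through the metalloprotease Psmd14, and its genes had 7 positive and 1 negative log2 fold changes with a median of 0.12. None had an unadjusted p under 0.05. Psmd7, the partner of Psmd14, had the highest mean level of the lid genes with a Psm symbol, 88.5 CPM per kilobase. The lid gene Sem1, which has no such symbol, was higher at 117 CPM per kilobase. Psmd7 was at 240.4, 133.5, 234.7 and 160.7 CPM across the controls, against 219.5, 151.9, 271.3 and 188.6 CPM across the knockdown-labelled libraries. Psmd14 was at 124 ± 59.2 and 130 ± 31.2 CPM (SD, n = 4 each). Psmd11, a scaffold subunit with the smallest p of the lid, was at 43.3, 42.2, 65.4 and 58.6 CPM and at 53.5, 89.5, 74.7 and 83.6 CPM. For Psmd11, 3 of the 4 knockdown-labelled libraries lay above all controls (log2 fold change 0.53, SE 0.26, unadjusted p = 0.0679, adjusted p = 1.0 in edgeR's test). Psmd13 was the lowest of the lid at 0.887 CPM per kilobase, with 4.86, 0, 0.686 and 6.68 CPM and 0.198, 1.58, 7.74 and 2.23 CPM.

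Psmd13 shares exon sequence with Sirt3 on the other strand, so its few reads cannot be assigned with certainty if the counting did not use strand, a setting that is unknown here. The same holds for Psma4, Psma5, Psmb7, Psmb8, Psmb9, Psmc3, Psmd1, Psmd3, Psmd9 and Psme1, 11 of the 49 genes in all. Psmb5, Psmd1, Psme2b and Psmg3 overlap another gene on the same strand. In 14 of the 49 the deposited counts were fractional in at least 1 library, which marks reads divided between genes by estimation.

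The activators that can take the place of the regulatory particle were led by Psme4, which encodes an activator linked to the degradation of acetylated histones. Psme4 had a mean of 27.8 CPM per kilobase and was at 164.1, 224.6, 344.0 and 221.7 CPM across the controls, against 207.0, 242.5, 247.9 and 212.6 CPM across the knockdown-labelled libraries. The knockdown-labelled values lay within the range of the controls, of which replicate 3 was the highest (log2 fold change −0.069, SE 0.23; 95% interval of the level 67.3% to 135% of control). Psme3, the nuclear activator of the other family, was at 50.6, 25.8, 47.3 and 17.8 CPM and at 26.6, 32.7, 60.3 and 19.6 CPM.

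Psme1 and Psme2, whose products form a joint ring induced by interferon gamma, were lower than Psme4 and uneven. Psme1 was at 10.6, 0, 1.42 and 8.87 CPM across the controls, against 0, 20.05, 12.6 and 12.5 CPM across the knockdown-labelled libraries, with no count in control replicate 2 and knockdown-labelled replicate 1. Psme2 was at 22.6, 2.05, 11.99 and 11.9 CPM and at 4.36, 10.7 and 30.3 CPM in knockdown-labelled replicates 1 to 3, with replicate 4 (351 counts) between replicates 2 and 3. Its lowest value of each group was also in these 2 libraries. Their log2 fold changes were 1.12 (SE 1.58) and 0.22 (SE 0.77). Psme2b, an intronless copy of Psme2 whose reads may be shared with it, stayed between 0.126 and 1.73 CPM. Psmf1, an inhibitor of the core, was at 13.6, 9.83, 9.33 and 6.73 CPM and at 16.9, 0, 8.32 and 28.6 CPM, so that the controls lay together and the knockdown-labelled libraries held both the lowest and the highest value. Of these 6 genes 4 had positive log2 fold changes, with a median of 0.32.

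The assembly chaperones with a Psm symbol were the lowest of the constitutive groups in their summed level. Their sums were 180.8, 152.8, 103.8 and 118.9 CPM across the controls and 91.6, 128.3, 123.5 and 137.3 CPM across the knockdown-labelled libraries. The sums leave out Pomp, an assembly chaperone gene without a Psm symbol, so the rank holds only for the listed genes. Pomp alone was at 198.3, 88.1, 175.8 and 237.2 CPM across the controls, against 114.8, 157.2, 180.2 and 192.3 CPM across the knockdown-labelled libraries. Psmd5, Psmd9 and Psmd10 assist the assembly of the base. Psmd5 was the most even proteasome gene among the controls, at 66.7, 68.9, 71.5 and 60.2 CPM, and was at 43.8, 50.9, 76.8 and 48.4 CPM across the knockdown-labelled libraries. Of the latter, 3 lay below all controls and replicate 3 above them (log2 fold change −0.28, SE 0.24). Psmd9 was at 9.23, 30.9, 7.55 and 12.99 CPM and at 11.1, 26.2, 12.8 and 18.6 CPM. Psmd10, the ankyrin-repeat protein gankyrin, was at 40.3, 12.8, 11.3 and 9.71 CPM and at 6.74, 13.5, 4.97 and 32.3 CPM, with control replicate 1 and knockdown-labelled replicate 4 well above the rest.

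Psmg1 to Psmg4 encode the chaperones that build the alpha ring. Psmg1 was at 23.2, 18.6, 4.74 and 8.57 CPM across the controls, against 23.4, 30.4, 16.5 and 23.7 CPM across the knockdown-labelled libraries, a difference of 0.77 on the log2 scale (SE 0.52). Psmg2, the partner of Psmg1, was at 8.13, 7.88, 0.0229 and 15.8 CPM and at 0, 3.89, 4.74 and 1.44 CPM (−1.66, SE 1.54), so the estimates of these partners had opposite signs, and neither passed. Psmg3 was at 30.3, 0.693, 6.54 and 2.37 CPM and at 3.77, 0, 0.924 and 12.9 CPM, and Psmg4 at 2.84, 12.95, 2.15 and 9.29 CPM and at 2.78, 3.40, 6.70 and 0 CPM. Psmg2, Psmg3 and Psmg4 each had 1 knockdown-labelled library with no count, a different one for each. Among the 7 assembly genes 2 log2 fold changes were positive and 5 negative, with a median of −0.36. Across the libraries 6 of the 7 ranged over more than 4-fold, beside 67.6% of all genes tested.

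**Figure D4:**
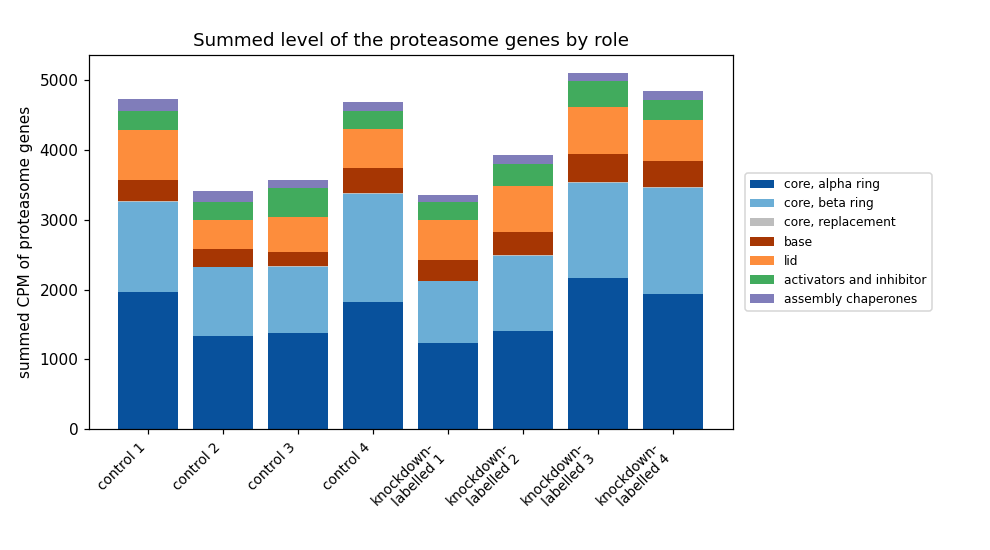
Summed CPM of the proteasome genes in each library, stacked by role. The total is 3414 to 4735 CPM in the 4 controls and 3350 to 5106 CPM in the 4 knockdown-labelled libraries, and the alpha and beta rings make up most of it in every library.

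Summed over the 49 genes, proteasome RNA was at 4735, 3414, 3565 and 4684 CPM across control replicates 1 to 4, or 4100 ± 708 on average (SD, n = 4), and at 3350, 3923, 5106 and 4849 CPM across knockdown-labelled replicates 1 to 4, or 4307 ± 816 on average (SD, n = 4). Control replicates 2 and 3 and knockdown-labelled replicate 1 stood lowest, and knockdown-labelled replicate 3 highest. The difference between the means was smaller than the spread in either group. The alpha ring contributed 1624 ± 316 and 1682 ± 435 CPM and the beta ring 1195 ± 284 and 1218 ± 284 CPM (SD, n = 4 each). Psmc3ip, outside the proteasome, was at 136.0, 61.1, 70.8 and 131.4 CPM and at 87.7, 117.2, 92.2 and 112.8 CPM (0.038, SE 0.29).

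Of 28 other genes of the ubiquitin and proteasome pathway that were found and tested, 0 passed edgeR's test, with 0 higher and 1 lower at an unadjusted p under 0.05, where 1.1% of all genes were higher and 1.71% lower. Their log2 fold changes were positive in 14 and negative in 14, with a median of 0.0075. Nfe2l2, a transcription factor of the oxidative stress response that can induce proteasome genes, was at 30.8 ± 6.92 CPM across the controls and at 11.8 ± 6.19 CPM across the knockdown-labelled libraries (SD, n = 4 each). The groups of Nfe2l2 did not overlap (log2 fold change −1.38, SE 0.43, unadjusted p = 0.00909, adjusted p = 1.0 in edgeR's test). Ube3c, a ubiquitin ligase that binds the proteasome, was at 27.4 ± 11.5 and 15.2 ± 3.06 CPM (−0.86, SE 0.38), and Sem1, the small lid subunit without a Psm symbol, at 352 ± 63.9 and 476 ± 96.5 CPM (0.44, SE 0.20; SD, n = 4 each). The relative of Nfe2l2 that drives proteasome genes when the proteasome is inhibited, Nfe2l1, was at 19.7 ± 5.49 and 28.2 ± 3.69 CPM (SD, n = 4 each), with overlap. The groups did not overlap in 3 of the 28, beside 2.98% of all genes, namely Nfe2l2, Ube3c and Uchl5. Uchl5, a deubiquitinase bound to the base, was at 14.9 ± 7.36 and 25.7 ± 2.06 CPM (0.78, SE 0.44; SD, n = 4 each).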

How the data were processed

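The deposited matrix holds expected counts for each gene, with no normalisation, in 1 column for each library. The submitters' processing notes name STAR 2.7.3a, Trim Galore 0.6.10 and the genome GRCm38 (mm10), and for the counts RSEM 1.2.28. The annotation release, strand setting and any removal of duplicate reads were not given in the sources used here. Expected counts were rounded to whole numbers (4.22% of values altered). The labels mention no molecular identifiers, so a count is not a molecule.

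Genes were filtered with filterByExpr (minimum count 10, minimum total 15), which left 13146 of 55487, scaled by TMM and compared with edgeR 4.0.16 (R 4.3.3; quasi-likelihood test, robust, group as the only term). P-values were adjusted by Benjamini-Hochberg across every gene in the fit, at a threshold of 0.05. The procedure was also run on simulated data, and its power to detect a change of a given size is not reported here. Samples of a group are biological replicates according to the series text. Lengths and positions come from GENCODE vM21 (GRCm38), in which all 49 symbols matched, and promoters from RefSeq, which held 41.

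Values in every library are given for the catalytic and replacement genes, for the highest, lowest and smallest-p gene of each role, for all activators and assembly genes and for any gene whose groups did not overlap. Other genes named for low values were chosen after these were seen. The members, lists and motifs were chosen with earlier results of these data known. Of the pathway list, 4 symbols did not match a row: Shfm1, AI314180 and Ufd1l, which are older names of genes matched under their newer names, and Paaf1, which was not analysed here. DESeq2 1.42.0 and limma 3.58.1 were alternatives.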

Additional observations from a re-analysis of the deposited data

Results flagged for a closer look

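Among 72 groups of 4 libraries checked for the genes named, 5 had a library standing apart by Dixon's criterion, where chance gives about 1 in 20. Of these, 3 rest on 5 counts or fewer: Psmb8 in control replicate 1 (0.0611 CPM) and knockdown-labelled replicate 3 (0.116 CPM), and Psmb11 in knockdown-labelled replicate 4 (0.157 CPM). Psmb11 in control replicate 4 was at 2.03 CPM, from 87 counts against 2 to 4 in the other controls. Psmd10 in control replicate 1 was at 40.3 CPM, against 9.71 to 12.8 CPM in the other controls.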

How the results depend on the processing

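No proteasome gene was called with any of the settings or with any 1 library left out, and over all genes calls were made only by DESeq2, which called 20. The median of the proteasome genes was −0.039 to 0.20 with 1 library left out. Medians that likewise changed sign were those of the alpha ring (−0.039 to 0.19), beta ring (−0.12 to 0.14), base (−0.13 to 0.24), activators (−0.060 to 0.65) and assembly genes (−0.66 to 0.014). The lid median was positive with any 1 library left out (0.035 to 0.30). The base median was 0.54 with limma-voom, and without the filter the alpha-ring median was −0.030. Deviations from the group mean in libraries of the same replicate number had correlations of −0.12, −0.0030, −0.0072 and 0.018. With so few libraries in each group these values cannot exclude a pairing. The labels do not say that a number marks a shared litter or day. A replicate block called 0 proteasome genes and 0 genes in all, and gave a proteasome median of −0.014, Psmb2 −0.028, Psmd13 0.97 and Psmf1 −0.33. With the longest transcript as length the core was 8.73 times the base.

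Other signs that turned were the following log2 fold changes of named genes and medians, and the cause was not tested. Thinning to the smallest total gave a base median of 0.0061, a beta-ring median of 0.0090, Psmb5 0.0090, Psma7 0.041, Psme4 0.0016 and Psme2 −0.020. Library totals alone gave Psma7 0.021 and Psme3 0.033, upper-quartile scaling gave Psma7 0.0041 and Psme3 0.0067, and Psme3 was 0.00055 with DESeq2 size factors and 0.00051 with DESeq2. With limma-voom Psmc3 was 2.05, Psmd13 1.16, Psmf1 −0.16 and Psmd10 0.27, and without the filter Psmc3ip was −0.0019. In an alternative chosen after seeing the library totals, knockdown-labelled replicate 4 alone stood against the controls, assumed to vary as they do. This gave medians of 0.25 for the base, 0.25 for the beta ring, −0.14 for the lid and 0.31 for the assembly genes, Psmb6 0.25, Psmc3 0.25, Psmd7 −0.021, Psme2 −0.14, Psmd10 0.81 and Psmg3 0.37. With 1 library left out, signs turned in Psmb5 (−0.32 to 0.14), Psma6 (−0.35 to 0.49), Psma7 (−0.33 to 0.18), Psmb2 (−0.12 to 0.29), Psmd7 (−0.045 to 0.24), Psmd13 (−1.18 to 0.66), Psme4 (−0.21 to 0.16), Psme2b (−0.0074 to 0.74), Psme2 (−0.48 to 0.71), Psme3 (−0.43 to 0.20), Psmf1 (−0.25 to 0.88), Psmd9 (−0.082 to 0.80), Psmd10 (−1.15 to 0.37), Psmg3 (−2.70 to 0.47) and Psmc3ip (−0.13 to 0.23). Apart from left-out libraries, 323 values of named genes kept their sign and 24 did not.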
